A study of Arabidopsis thaliana with 2 samples.

Results

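Polycomb repressive complex 2 (PRC2) silences genes by methylating lysine 27 of histone H3, and its subunit genes were followed here in mature ovules of Arabidopsis thaliana. The 8 genes were chosen by locus as the known PRC2 subunits (MEA, SWN, CLF, FIS2, VRN2, EMF2, FIE and MSI1). All 8 had a row in a table of 33557 genes with values, of which 16303 reached 1 FPKM in either library and are called expressed. FPKM counts fragments per transcript kilobase relative to library size, so levels of different genes can be compared. Ovules came from myb98 plants, mutant for MYB98, a transcription factor active in the synergids beside the egg cell. They were set against ovules labelled wild-type, which came from the male-sterile line ms1, and had not been pollinated. The alleles, the accession background and the plants' age at harvest are not stated in the labels. Ovules of about 50 pistils were collected 36 hours after emasculation at floral stage 12, by a protocol whose wording names wild-type plants only. There was 1 library per genotype, so no difference below has a replicate check, a p-value or a replicate error, and any other difference between myb98 and ms1 plants cannot be told apart from the effect of MYB98.

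PRC2 of plants is assembled from a SET-domain methyltransferase, a VEFS-box zinc-finger protein and the WD40 proteins FIE and MSI1. MEA and FIS2 belong to the form that acts in the central cell of the ovule and later in the endosperm, where it keeps seed growth from starting before fertilization. CLF and SWN with EMF2 or VRN2 form the complexes of the plant body, which hold flowering and meristem genes silent. MEA and FIS2 are imprinted genes, expressed from the maternal allele after the DNA glycosylase DME has removed methylation in the central cell.

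The catalytic and the VEFS-box subunits are each encoded by related genes, so the stretches of coding sequence most alike in all 3 genes are shown first. Each is the 60-base window, within 1 coding exon of all 3 genes, with the most identical bases in an alignment of the 3 coding sequences (RefSeq, TAIR10.1, plus strand, 5′ to 3′; exons are those of the transcript with the longest coding sequence). Lower case marks bases shared by all 3 genes and capitals mark the bases at which they are not all the same. For the methyltransferases the window lies in the cysteine-rich region ahead of the SET domain, at chr1:547773-547832 in MEA, chr4:890365-890424 in SWN and chr2:9958960-9959019 in CLF, in exon 12 of 17 in each.
MEA: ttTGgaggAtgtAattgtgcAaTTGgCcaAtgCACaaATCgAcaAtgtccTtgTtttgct
SWN: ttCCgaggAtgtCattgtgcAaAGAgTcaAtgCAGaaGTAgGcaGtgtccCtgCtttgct
CLF: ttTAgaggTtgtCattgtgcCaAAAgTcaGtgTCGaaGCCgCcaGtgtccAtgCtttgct
Of the 60 bases, 40 were identical in all 3 genes and 20 were not. For the VEFS-box genes the window lies at chr2:14995794-14995853 in FIS2 (exon 10 of 13), chr4:9478940-9478999 in VRN2 (exon 12 of 15) and chr5:20828364-20828423 in EMF2 (exon 19 of 22).
FIS2: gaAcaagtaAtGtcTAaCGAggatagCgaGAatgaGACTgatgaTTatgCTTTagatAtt
VRN2: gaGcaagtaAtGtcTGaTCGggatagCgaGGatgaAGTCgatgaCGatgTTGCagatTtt
EMF2: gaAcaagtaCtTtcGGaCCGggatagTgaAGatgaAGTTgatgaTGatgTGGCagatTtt
Here 38 bases were identical and 22 were not.

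Over whole coding sequences, MEA and SWN were 66.1% identical, SWN and CLF 58.7%, and MEA and CLF 54.6%. FIS2 and VRN2 were 66.1% identical, VRN2 and EMF2 59.9%, and FIS2 and EMF2 51.1%. The longest run of identical bases between any of these pairs was 30, in MEA and SWN. That run does not lie within the window shown, which was chosen for likeness of all 3 genes. Of the 2317 words of 25 bases in the MEA transcript, 6 also occurred in a transcript of another locus, namely SWN, and VRN2 and EMF2 shared no such word with any other annotated locus. FIS2 shared 57 of 2598 such words (2.19%), with 84 other loci. CLF, FIE and MSI1 shared 0.991%, 2.99% and 6.74% of theirs, in each with 1 neighbouring locus. The exons of these 3 genes and of FIS2 overlap exons of annotated genes on the opposite strand, over 80 nt in CLF, 92 nt in FIE, 132 nt in MSI1 and 44 nt in FIS2. No source used here gives the strand setting of the counting, so reads of the overlaps cannot be assigned. The neighbour of MSI1, FHIT, stood at 22.1 FPKM in myb98 ovules and 23.2 FPKM in wild-type ovules, and that of FIS2, AT2G35680, at 24.1 and 44.2 FPKM in the same order.

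The libraries held about 41972000 fragments (myb98) and 47861000 (wild-type), by an estimate from the lowest values above 0. MYB98 (AT4G18770) stood at 0.474 FPKM in the myb98 library and 1.35 FPKM in the wild-type library, the direction its label gives. The log2 ratio used below is log2((myb98 FPKM + 1)/(wild-type FPKM + 1)), which understates differences of low genes. Over all expressed genes its median was -0.0039, with an interquartile range of -0.28 to 0.29. A gene is said to have risen or fallen where the log2 ratio reached 2 or -2, which is 4-fold on that scale and a rule of size, not a test. The ovule label goes with the markers. All 4 ovule and integument markers (STK, BEL1, ANT, INO) and all 5 EC1 genes of the egg cell were expressed, with summed levels of 166 and 259 FPKM in myb98 and 150 and 222 FPKM in wild-type ovules. Most of the difference in the egg cell sum lay in EC1.5, at 56.8 FPKM in myb98 and 24.3 FPKM in wild-type ovules, while EC1.1 and EC1.4 were lower in myb98. Of 3 synergid markers 2 fell, LURE1.2 and AT1G47470, and the 3 summed to 0.895 FPKM in myb98 and 258 FPKM in wild-type ovules. MYB98 is the third marker, and at 1.35 FPKM in wild-type ovules it was too low to have fallen by the rule. Pollen markers summed to 1.33 FPKM in myb98 and 1.34 FPKM in wild-type ovules, nearly all of it ANX1. The sperm marker MGH3 was listed at 0 in myb98 and stood at 0.0355 FPKM in wild-type ovules. HEC1, a stigma and transmitting tract marker, was listed at 0 in both libraries, while NTT of that list stood at 1.01 FPKM in myb98 and 0.75 FPKM in wild-type ovules. Of the leaf markers, LHCB2.1 fell to 4.07 FPKM in myb98 ovules, against 44.5 FPKM in wild-type ovules (log2 ratio -3.17), and RBCS1A had 216 and 427 FPKM in the same order. The part of leaf-type RNA in the results below was not tested.

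All 8 PRC2 subunit genes were expressed in mature ovules, and none of them rose or fell in myb98. The count of 0 of 8 stands beside 0.994% of all expressed genes past the same rule, 0.712% that fell and 0.282% that rose. With the rule set at 1 and -1 the count was again 0 of 8, beside 5.69% of expressed genes, 2.74% lower and 2.95% higher. At such shares a count of 0 among 8 genes says little about the set. The median log2 ratio of the 8 genes was -0.01, with a range from -0.52 in SWN to 0.57 in MSI1, and 4 were lower and 4 higher in myb98 ovules, beside 8224 lower among the 16303 expressed genes. MEA reached 1 FPKM in the myb98 library alone. MEA and FIS2 were so low in wild-type ovules that even a listed 0 in myb98 would have given log2 ratios of only -0.89 and -1.14, so by this rule they could not have fallen. The other 6 could have. In whole ovules, fewer cells of a type and less RNA per cell cannot be told apart.

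**Figure D1:**
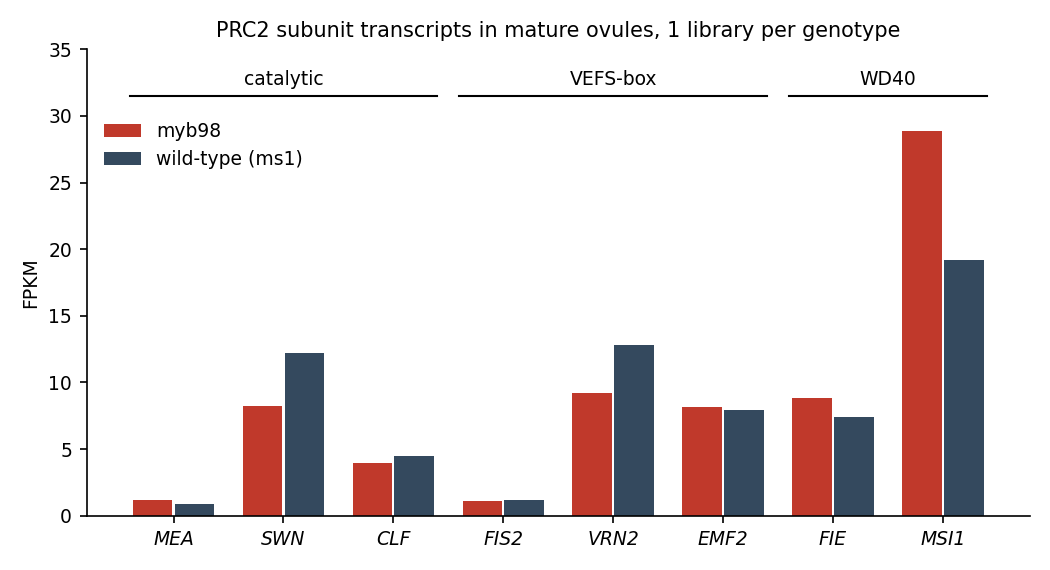
Level of each PRC2 subunit gene in FPKM (vertical axis, linear from 0), with the myb98 library in red at the left of each pair and the wild-type library (ms1) in dark blue at the right. Each bar is 1 library, so there are no error bars. MSI1 was the highest gene in both libraries and MEA and FIS2 were the lowest, at 0.852 to 1.21 FPKM.

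Among the methyltransferase genes, SWN was the most abundant and MEA the least abundant in both libraries. SWN (AT4G02020, chromosome 4, 886580 to 891987, plus strand, longest transcript 3354 nt), which encodes a histone methyltransferase of the plant body that is also active in ovules, stood at 8.2 FPKM in myb98 ovules and 12.2 FPKM in wild-type ovules. It was 1.49-fold lower in myb98 (log2 ratio -0.52), the lowest log2 ratio of the 8 genes, though VRN2 was the lowest once transcript length was taken into account. CLF (AT2G23380, chromosome 2, 9955092 to 9960386, plus strand, 3456 nt), the methyltransferase that keeps AGAMOUS silent in leaves, had 3.94 FPKM in myb98 and 4.51 FPKM in wild-type ovules. The CLF level was thus 1.14-fold lower in myb98 (log2 ratio -0.16). MEA (AT1G02580, chromosome 1, 544733 to 549202, plus strand, 2341 nt) stood at 1.18 FPKM in myb98 and 0.852 FPKM in wild-type ovules. The MEA level was 1.38 times as high in myb98 (log2 ratio 0.23), on an estimated 116 fragments in myb98 and 96 in wild-type. At this low level the MEA log2 ratio moved with the pseudocount, to 0.42 with 0.1 FPKM and 0.08 with 5 FPKM. The summed level of the 3 genes was 13.3 FPKM in myb98 and 17.6 FPKM in wild-type ovules, 1.32-fold lower in myb98.

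SWN made up less of the methyltransferase transcripts in myb98, and CLF and MEA made up more. SWN made up 61.5% of the summed level in myb98 and 69.5% in wild-type ovules. CLF made up 29.6% in myb98 and 25.6% in wild-type ovules, and MEA 8.85% in myb98 and 4.85% in wild-type ovules. There were 6.96 SWN transcripts for each MEA transcript in myb98 ovules and 14.3 in wild-type ovules. These are ratios of FPKM over the whole ovule and do not show which cells held either transcript. Neither the ratios nor the shares were corrected for transcript length, and SWN went from -0.52 to -0.27 against genes of similar length. The MEA values rest on an estimated 116 fragments in myb98 and 96 in wild-type.

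Of the VEFS-box genes, VRN2 was the highest in both libraries and FIS2 the lowest. VRN2 (AT4G16845, chromosome 4, 9476069 to 9479878, plus strand, 1884 nt), named for its part in the memory of winter cold, stood at 9.2 FPKM in myb98 and 12.8 FPKM in wild-type ovules, 1.39-fold lower in myb98 (log2 ratio -0.44). EMF2 (AT5G51230, chromosome 5, 20823644 to 20829644, plus strand, 2599 nt), which prevents flowering straight after germination, had 8.14 FPKM in myb98 and 7.95 FPKM in wild-type ovules (log2 ratio 0.03). FIS2 (AT2G35670, chromosome 2, 14992565 to 14996756, plus strand, 2622 nt) had 1.13 FPKM in myb98 and 1.21 FPKM in wild-type ovules (log2 ratio -0.05), on an estimated 125 and 152 fragments in the same order. AT2G35680, which overlaps FIS2 over 44 nt, stood far higher, at 24.1 FPKM in myb98 and 44.2 FPKM in wild-type ovules. How much of the FIS2 level came from its reads was not tested. The VEFS-box genes summed to 18.5 FPKM in myb98 and 22.0 FPKM in wild-type ovules. VRN2 held 49.8% of that sum in myb98 and 58.3% in wild-type ovules, EMF2 44.1% in myb98 and 36.2% in wild-type, and FIS2 6.13% in myb98 and 5.51% in wild-type.

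**Figure D2:**
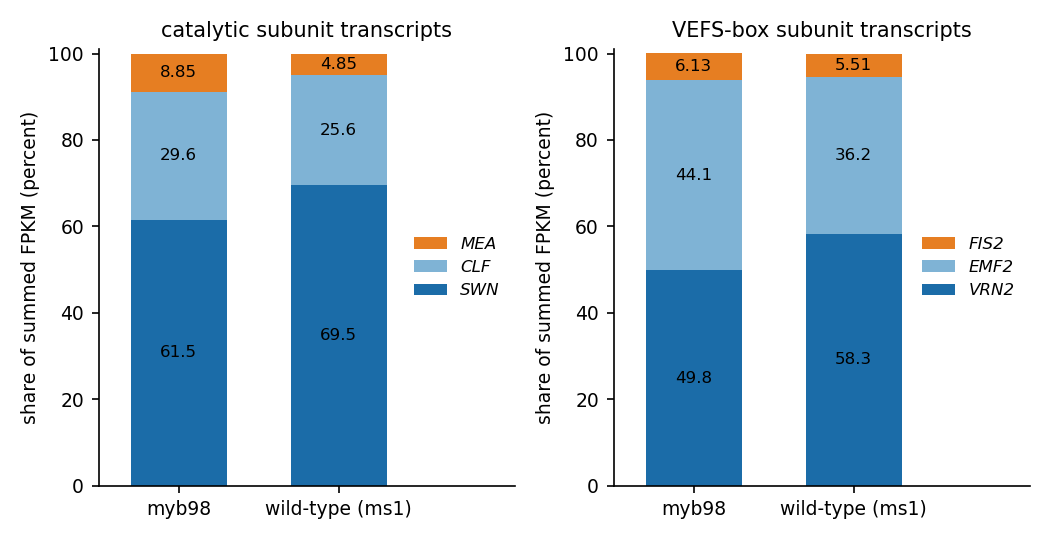
Share of each gene in the summed FPKM of the methyltransferase genes (left) and of the VEFS-box genes (right), in percent, with myb98 at the left and wild-type (ms1) at the right of each panel, 1 library each. SWN and VRN2 held the most in both libraries, with smaller shares in myb98 (61.5% and 49.8%) than in wild-type ovules (69.5% and 58.3%). Shares are not corrected for the trend with transcript length.

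Both WD40 genes were higher in myb98 ovules. MSI1 (AT5G58230, chromosome 5, 23556012 to 23558245, plus strand, 1626 nt), a histone-binding protein that also serves in chromatin assembly factor 1, stood at 28.9 FPKM in myb98 and 19.2 FPKM in wild-type ovules. It was 1.51 times as high in myb98 (log2 ratio 0.57), the highest log2 ratio of the 8 genes. FIE (AT3G20740, chromosome 3, 7248809 to 7252452, minus strand, 1563 nt), the only copy of its subunit in Arabidopsis, had 8.83 FPKM in myb98 and 7.37 FPKM in wild-type ovules, 1.2 times as high in myb98 (log2 ratio 0.23). There were 3.27 MSI1 transcripts per FIE transcript in myb98 and 2.6 in wild-type ovules. Summed, MSI1 and FIE stood at 37.7 FPKM in myb98 and 26.6 FPKM in wild-type ovules. All 8 genes together summed to 69.5 FPKM in myb98 and 66.1 FPKM in wild-type ovules, of which MEA and FIS2 made up 3.33% in myb98 and 3.12% in wild-type.

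In order of level, the myb98 library ran MSI1, VRN2, FIE, SWN, EMF2, CLF, MEA and FIS2, and the wild-type library MSI1, VRN2, SWN, EMF2, FIE, CLF, FIS2 and MEA. MSI1 was 3.14 times as high as VRN2 in myb98 and 1.5 times as high in wild-type ovules. With no replicates, neighbours can be set only against counting error, taken as exact Poisson intervals (95%) of the estimated fragments. In myb98 ovules these intervals overlapped between each pair of neighbours from VRN2 (8.55 to 9.9 FPKM) through FIE (8.13 to 9.58) and SWN (7.73 to 8.68) to EMF2 (7.61 to 8.69), and between MEA (0.974 to 1.41) and FIS2 (0.943 to 1.35). In wild-type ovules they overlapped between VRN2 (12.1 to 13.6 FPKM) and SWN (11.7 to 12.8), between EMF2 (7.47 to 8.47) and FIE (6.77 to 8.01), and between FIS2 (1.03 to 1.42) and MEA (0.69 to 1.04). Among expressed genes, MSI1 stood above 90.0% in myb98 and 84.2% in wild-type ovules. MEA stood above 5.67% in myb98 and 2.5% in wild-type, and FIS2 above 5.09% and 6.07% in the same order.

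For 6 of the 8 genes the difference was larger than counting error, and for all 8 it was within the 10th to 90th percentile of expressed genes of similar level. The share of all expressed genes with a difference larger than counting error was not computed. The count of 6 therefore does not set these genes apart from others. The exact binomial interval (95%, from estimated fragments) of the ratio of myb98 to wild-type was 1.41 to 1.61 for MSI1, 0.623 to 0.721 for SWN and 0.655 to 0.79 for VRN2. It was 1.06 to 1.35 for FIE, 1.04 to 1.83 for MEA and 0.783 to 0.976 for CLF. It held a ratio of 1 for EMF2 (0.934 to 1.12) and FIS2 (0.734 to 1.2). These intervals cover counting error only, and the spread between plants, dissections and library preparations is unknown. The interval of FIS2 takes all its fragments as its own, those of the overlap with AT2G35680 included. Set beside expressed genes whose mean level was within 1.41-fold, all 8 log2 ratios lay between the 10th and 90th percentiles, and 4 of the 8 (MEA, CLF, FIS2 and EMF2) lay between the quartiles. For MSI1 those percentiles were -0.56 and 0.63 over 1723 genes, and for SWN -0.56 and 0.55 over 3764 genes.

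Transcript length moved with the differences. Expressed genes of 1000 to 1500 nt had a median log2 ratio of 0.11, and those of 3000 to 4000 nt a median of -0.24. Between them, genes of 1500 to 2000 nt, the class of FIE, MSI1 and VRN2, had a median of 0.02. The 2 shortest transcripts of the set, FIE and MSI1, had log2 ratios of 0.23 and 0.57, and the 2 longest, SWN and CLF, -0.52 and -0.16. Set against the 501 expressed genes nearest in length, SWN stood at -0.27, CLF at 0.09 and FIS2 at 0.09, so the direction turned for CLF and FIS2. VRN2 stood at -0.47, the lowest of the 8 genes there, and MSI1 at 0.53, and MEA at 0.32, FIE at 0.22 and EMF2 at 0.15. The median of the 8 genes was 0.12 there, against -0.01 without the correction.

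**Figure D3:**
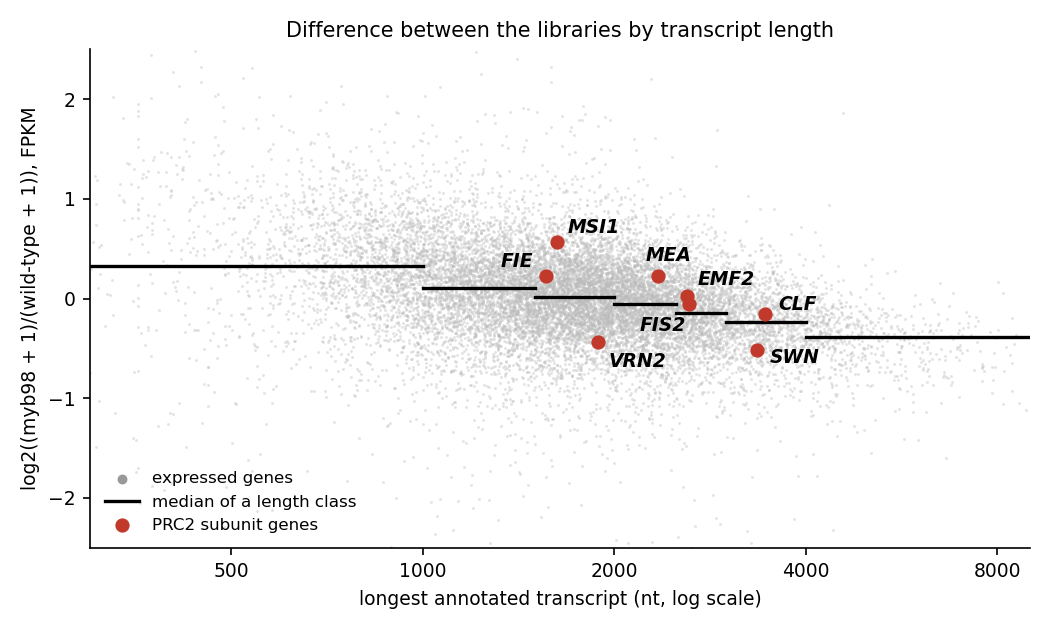
Log2 ratio of each expressed gene (vertical axis) against its longest annotated transcript in nt (horizontal, log scale), with PRC2 subunit genes in red and black bars for the median of each length class. Genes outside the axes are not drawn. The bars run from 0.33 for genes of 300 to 1000 nt to -0.39 above 4000 nt, and MSI1 lies above and VRN2 below the median of their length class.

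MEA and FIS2 act in the central cell, whose markers summed to a lower level in myb98. None of the markers passed the rule, though not all of them were high enough to fall by it. Of 5 markers, 4 were expressed and none was listed at 0, and they summed to 22.9 FPKM in myb98 and 31.9 FPKM in wild-type ovules. Most of either sum lay in AT3G10890, which had 16.0 FPKM in myb98 ovules, 1.25-fold lower than in wild-type ovules, and nearly all of the difference between the sums lay in AT3G10890 and DME. FWA, an imprinted homeobox gene, had 1.36 FPKM in myb98 and 1.67 FPKM in wild-type ovules, while AGL80, a MADS-box regulator of central cell development, had 1.29 and 1.18 FPKM in the same order. FWA, AGL80 and AGL61 (0.389 FPKM in wild-type ovules) were so low there that even a listed 0 in myb98 would not have been a fall. DME, the DNA glycosylase upstream of MEA and FIS2, stood at 3.85 FPKM in myb98 and 8.61 FPKM in wild-type ovules, 2.23-fold lower (log2 ratio -0.99, or -0.56 against genes of its length of 6963 nt). The levels of MEA and FIS2 stood at 1.38 and 0.935 times wild-type in a library with DME at 0.448 times, uncorrected for length. A link between these levels was not tested. The part of the number of central cells in these values was not tested.

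The genes related to MSI1 were all higher in myb98 ovules, beside 8079 of all 16303 expressed genes. None rose by the size rule, beside 0.282% of expressed genes. Over the 4 genes (MSI2 to MSI5) the median log2 ratio was 0.43, and 0.43 against genes of similar length, beside -0.0039 for all expressed genes. MSI3 had 12.5 FPKM in myb98 and 7.66 FPKM in wild-type ovules, 1.63 times as high, and MSI2 had 20.5 and 14.1 FPKM in the same order. MSI4 (FVE), which acts with histone deacetylases in flowering time, was the highest of them, at 37.3 FPKM in myb98 and 29.1 FPKM in wild-type ovules. MSI2 and MSI3 coding sequences are 83.2% identical and share a run of 31 bases. MSI4 and MSI5 are 83.0% identical and share a run of 41 bases. The separate values within each pair are therefore less certain, whereas MSI1 is at most 60.7% identical to any of the 4. MSI5 had 11.4 FPKM in myb98 and 9.92 FPKM in wild-type ovules. Of the partners of MSI1 in chromatin assembly factor 1, FAS1 stood at 3.98 FPKM in myb98 and 4.15 FPKM in wild-type, and FAS2 stood at 3.78 and 3.21 FPKM. The list of such partners and of regulators of MEA had 7 expressed genes, with a median log2 ratio of 0.01. Of the 7, 0 rose or fell, beside 0.994% of all expressed genes. DME stands in this list and among the central cell markers. HDA19, a histone deacetylase, was its highest member at 44.3 FPKM in myb98 and 44.1 FPKM in wild-type ovules, and HDA6 had 15.0 and 12.9 FPKM.

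Accessory and recruiting factors of PRC2 showed no rise or fall in 14 expressed of 17 listed genes, beside 0.994% of all expressed genes past the rule. The median log2 ratio of the 14 was -0.07. VAL1, a B3-domain repressor that recruits PRC2, had 4.49 FPKM in myb98 and 7.3 FPKM in wild-type ovules, 1.63-fold lower (log2 ratio -0.6, or -0.35 against genes of similar length). BPC2, of a family that binds GA-rich DNA, had 20.7 and 15.8 FPKM in the same order, and AT3G63270 had 6.64 and 4.84 FPKM. The cold-induced gene VIN3 stood below the filter at 0.16 FPKM in myb98 and 0.139 FPKM in wild-type ovules, with VEL2 and VEL3 also below it.

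PRC1, which adds ubiquitin to histone H2A, and readers of the PRC2 mark had 10 expressed genes of 10 listed, with a median log2 ratio of -0.01. Of them 0 rose and 0 fell, beside 0.282% and 0.712% of all expressed genes. BMI1B (2.83 FPKM in wild-type ovules) and BMI1C (0.761 FPKM) were too low there to have fallen by the rule. The ring-finger genes RING1A and RING1B were lower in myb98, RING1A at 2.03 FPKM in myb98 and 3.45 FPKM in wild-type ovules (1.69-fold) and RING1B at 2.59 and 4.57 FPKM (1.76-fold). EMF1, a plant protein that works with PRC1, had 4.21 FPKM in myb98 and 6.99 FPKM in wild-type ovules (log2 ratio -0.62, or -0.28 against genes of similar length). EBS, a reader of histone methylation, was the highest at 29.5 FPKM in myb98 and 28.2 FPKM in wild-type ovules.

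Enzymes that oppose PRC2 held the one rise among the 9 lists of related genes. JMJ30 (AT3G20810, JMJD5), a jumonji protein with a clock phenotype, rose to 44.5 FPKM in myb98 ovules, against 1.69 FPKM in wild-type ovules (log2 ratio 4.08), in a comparison where 0.282% of expressed genes rose. No source used here gives the hour of harvest, and the part of time of day was not tested. The other expressed H3K27me3 demethylases did not pass the rule. REF6 had 6.04 FPKM in myb98 and 7.67 FPKM in wild-type ovules, ELF6 3.34 and 5.06 FPKM, and AT5G46910 3.09 and 3.99 FPKM. Against genes of similar length, their log2 ratios were 0.09, -0.09 and -0.04, in that order. With JMJ30, the list of 4 expressed genes had a median log2 ratio of -0.29, and 0.02 against genes of similar length.

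Of 9 expressed Trithorax-type activators, which counter Polycomb silencing, 0 rose and 0 fell, beside 0.282% and 0.712% of all expressed genes. The median log2 ratio of the 9 was -0.69. In the list 8 of 9 genes were lower in myb98, beside 8224 of all 16303 expressed genes. Against genes of similar length the median was -0.27 and 7 of 9 were lower. The remodelling ATPase gene SYD had 8.88 FPKM in myb98 and 20.8 FPKM in wild-type ovules, 2.34-fold lower (log2 ratio -1.14, or -0.72 against genes of similar length). ATXR3 (SDG2), a methyltransferase for lysine 4 of histone H3, had 4.78 FPKM in myb98 and 10.1 FPKM in wild-type ovules, and BRM, a further remodelling ATPase, 9.92 and 18.4 FPKM. ULT1, a SAND-domain protein, was the one that was higher, at 23.2 FPKM in myb98 and 15.1 FPKM in wild-type ovules. The median transcript of the list was 5364 nt long, in the length range with the lowest ratios. Of the enzymes that add a single methyl group to lysine 27, ATXR6 had 5.54 FPKM in myb98 and 2.56 FPKM in wild-type ovules (log2 ratio 0.88) and ATXR5 had 5.3 and 6.17 FPKM. Across the 9 lists, 54 of 81 genes were expressed.

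**Figure D4:**
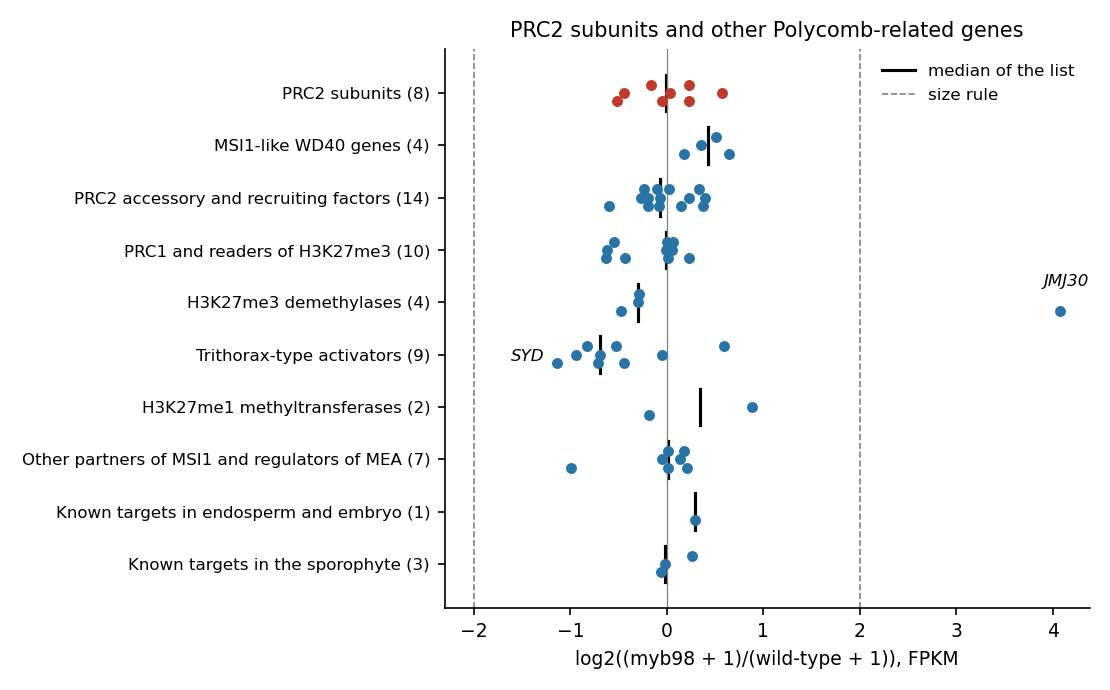
Log2 ratio of myb98 to wild-type for expressed genes of each list (horizontal axis), 1 point per gene with the number of expressed genes in brackets, black bars for medians and dashed lines for the size rule at -2 and 2. The PRC2 subunit genes in red lie between -0.52 and 0.57, and JMJ30 at 4.08 is the one point past the rule.

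Genes known as PRC2 targets were mostly below 1 FPKM in both libraries. Of 14 targets of the endosperm and embryo, 1 was expressed, AGL62, which holds back endosperm cellularization, at 1.32 FPKM in myb98 and 0.9 FPKM in wild-type ovules. Of the other 13, 5 were listed at 0 in both libraries, PHE1 and YUC10 among them, and the highest value of any was 0.588 FPKM. Of 12 targets in the plant body, 3 were expressed, namely SEP3 at 57.7 FPKM in myb98 and 48.1 FPKM in wild-type ovules, AG at 9.13 and 9.25 FPKM, and MAF5 at 4.51 and 4.74 FPKM. SEP3 and AG are floral organ regulators and MAF5 is a relative of FLC. FLC itself stood at 0.0256 FPKM in myb98 ovules and was listed at 0 in wild-type ovules, and WUS stood at 0.0181 FPKM in myb98 and was likewise listed at 0 in wild-type. Neither list of targets held a rise or a fall, beside 0.282% of all expressed genes that rose and 0.712% that fell. Genes below the filter were not put to the rule, and AGL62 was too low in wild-type ovules to have fallen by it. With so few expressed targets, the absence of a call says little about either list.

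MYB98 is known to bind the sequence GTAACNT, which was searched on both strands of the 250 bases upstream of each annotated gene start. It occurred in 1 of the 8 subunit genes, and in 11.6% of 15858 expressed protein-coding genes. The match was in FIE, at chr3:7252511-7252517 on the minus strand, beginning 65 bases upstream of the start, and is shown in capitals with the bases around it because FIE was the one gene of the set with a match.
FIE: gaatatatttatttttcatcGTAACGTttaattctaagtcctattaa
A match describes these letters and is no evidence of binding.

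By Euclidean distance over log2(FPKM + 1) in the 2 libraries, the gene nearest to MSI1 was RALF23 (29.0 FPKM in myb98 and 19.2 FPKM in wild-type), that nearest to FIE was ORTHL, that nearest to VRN2 was NHO1 and that nearest to EMF2 was FIP2. AT5G43620, AT2G22942, AT1G04830 and AT5G48775 were nearest to MEA, SWN, CLF and FIS2, in that order. The distances ran from 0.00199 to 0.028. With 2 values per gene the likeness is coarse.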

How the data were processed

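RNA of mature ovules was sequenced in 1 library of myb98 and 1 of ms1 (labelled wild-type). The authors deposited 1 table of FPKM values. The submitters' processing notes list the TAIR10 genome, TopHat2 2.0.14 and Cuffdiff 2.2.1. Annotation, strand setting and scaling between libraries: not given in the sources used here. That the deposited values are FPKM was inferred, as they are not whole and their lowest levels fell with transcript length. Of 35548 identifiers, 1991 were blank in both libraries. RefSeq TAIR10.1 annotation matched 32810 of the 33557 with values and gave names, coordinates, lengths and sequences. The estimate of depth used genes with 1 annotated transcript of at least 1500 nt and their lowest values above 0. There, FPKM multiplied by transcript length in kilobases was 0.0238 for 1 fragment in myb98 and 0.0209 in wild-type. Estimated fragments use the longest transcript and are approximate.

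Calculations used Python 3.11.15, pandas 2.3.3, scipy 1.17.1 and MAFFT 7.526 (pairwise and 3-way alignments of the longest coding sequences). The log2 ratio had a pseudocount of 1 FPKM, and expressed genes had at least 1 FPKM in either library. The functions were tested on simulated data, where centring on length removed most but not all of a length trend. All 8 subunits are named. In each list of Polycomb partners and targets the 3 expressed genes with the largest log2 ratio in size, the highest gene and every gene past the size rule were to be named; other list members and markers given were picked with their values known. The members and lists were chosen with earlier results of these data known. Alternatives were pseudocounts, scalings, filters, a size rule of 1 and centring on genes of similar length.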

Additional observations from a re-analysis of the deposited data

How the results depend on the processing

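No subunit gene passed the size rule under any alternative tried, and the largest log2 ratio of any of them was 0.59 in size. MSI1, FIE, MEA, SWN and VRN2 kept their direction under every alternative that gave a value. EMF2 ran from 0.0 to 0.15 outside the pseudocount of 5. Centring on genes of similar transcript length gave -0.27 for SWN and turned CLF to 0.09, FIS2 to 0.09 and the median of the 8 genes to 0.12. The same centring turned the medians of the accessory factors to 0.07, of the demethylases to 0.02 and of the plant body targets to 0.02. A pseudocount of 5 FPKM gave -0.38 for SWN, 0.08 for MEA, -0.09 for CLF and -0.02 for FIS2, and 0.1 FPKM gave 0.42 for MEA and -0.09 for FIS2. Without a filter on low values, the medians were 0.02 for the accessory factors and 0.03 for the plant body targets. Scaling to an equal upper quartile gave a median of 0.01 for PRC1 and the readers, and scaling to a median ratio of 1 gave -0.01 for the partners of MSI1 and regulators of MEA. With a size rule of 1, 1 Trithorax-type gene (SYD) passed. The cause was not tested for any of these changes. No scaling moved the median of all genes by more than 0.024 (log2). MEA has no value at 1 FPKM in both libraries. No paired analysis was possible because each genotype has 1 library. With an estimated 96 to 152 fragments a library, counting error was largest for MEA and FIS2. FIS2 is limited also by its overlap with AT2G35680, whose part in the FIS2 level was not tested.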
